A study of Mus musculus with 6 samples.

Results

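The 10 genes described here mark or drive the formation of osteoclasts, the multinucleated cells that break down bone. They were chosen by name, as the rows of the deposited gene table whose Ensembl identifier maps to Tnfrsf11a, Oscar, Calcr, Nfatc1, Dcstamp, Ocstamp, Acp5, Ctsk, Mmp9 or Car2, which gives 10 of its 23154 identifiers. RNA was sequenced from 2 stable lines made from RAW264.7, a mouse macrophage-like line widely used as an osteoclast precursor. The NUR77 line carried the transgene pINDUCER20b-HA-NUR77, which expresses HA-NUR77 under doxycycline. NUR77 is the nuclear receptor encoded by Nr4a1. The control line carried an inducible GFP construct in its place. All 6 dishes, 3 of each line, received doxycycline at 1 µg/mL for 18 hours from 24 hours after seeding, so doxycycline is common to both groups. The labels name no RANKL, the ligand that starts osteoclast formation, and no other stimulus. Each group is 1 stable line and no cells without doxycycline were analysed here, so the transgene and other differences between the lines cannot be told apart, and a p-value reflects only how dishes of the same line varied.

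Osteoclasts arise from cells of the macrophage lineage that are held alive by the growth factor M-CSF and receive RANKL through the receptor RANK. RANK signals through TRAF6 and NF-κB, and together with calcium signals from immunoglobulin-like co-receptors this induces the transcription factor NFATc1. NFATc1, with PU.1 and MITF, then switches on genes for cell fusion, for acid secretion and for the enzymes that digest bone matrix.

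The unit of level is the normalized read, a read after scaling every library to a total of 10000000. Depth was 11199468 to 15929487 reads per library. Nr4a1, the check of the labels, was at 170, 148 and 161 normalized reads in GFP dishes 1 to 3 and at 288, 314 and 297 in NUR77 dishes 1 to 3 (limma log2 fold change 0.90, SE 0.08, adjusted p = 5.5e-08). All NUR77 libraries were above all GFP libraries, although reads of the transgene and of the endogenous gene cannot be told apart. The lines also did not overlap for 70.6% of all tested genes, so this check of the labels is weak. Of 11201 tested genes, 7475 (66.7%) passed an adjusted p of 0.05 in limma, 4305 (38.4%) higher and 3170 (28.3%) lower in the NUR77 line. This large background applies to every count below.

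Of the 10 osteoclast genes, 7 had a mean of 10 or more normalized reads and were tested. Tnfrsf11a, Dcstamp, Mmp9 and Car2 rose in the NUR77 line, Ctsk and Acp5 fell, and Nfatc1 did not pass the threshold. Thus 6 of 7 tested genes were called, beside the 66.7% of all tested genes. The sizes covered a wide span, from a 71.2-fold higher mean for Mmp9 to a 14.2-fold lower mean for Ctsk. Ocstamp, Oscar and Calcr were too low for the test in both lines.

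**Figure D1:**
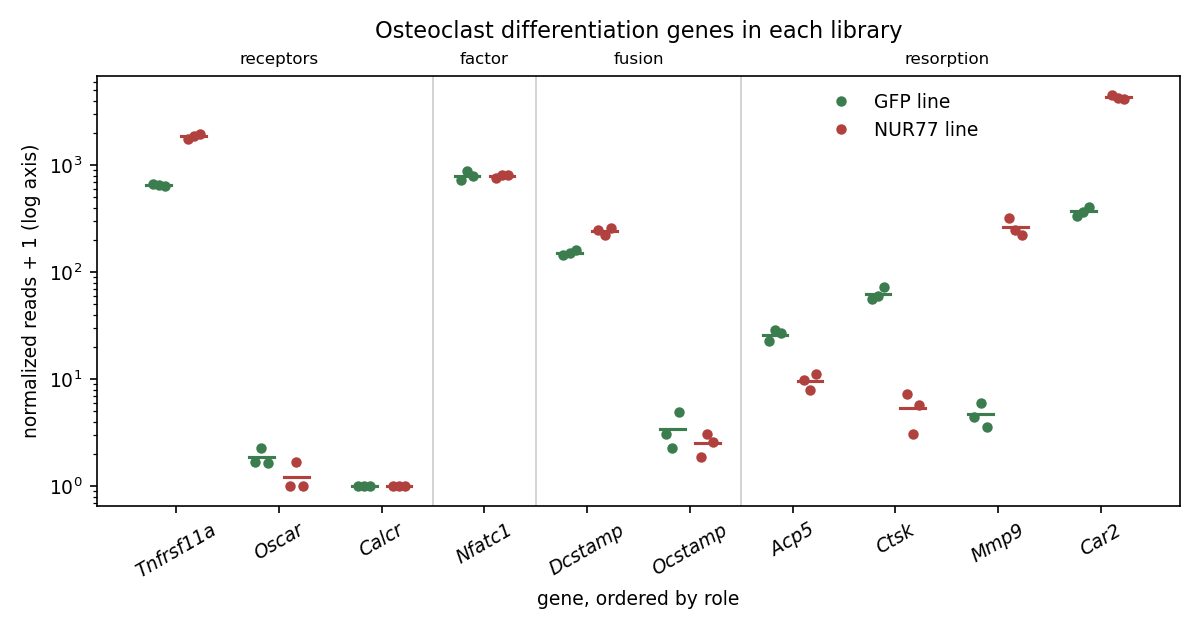
Normalized reads plus 1 (log axis) of the 10 genes in each library, 3 GFP libraries in green and 3 NUR77 libraries in red, with a bar at each mean. The lines do not overlap for 6 of the 7 tested genes, beside 70.6% of all tested genes. Calcr lies at 0 reads in every library.

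Among the receptors, Tnfrsf11a was the only one with more than a few reads. Tnfrsf11a encodes RANK (ENSMUSG00000026321, mm10 chromosome 1, 105780718 to 105847981 on the plus strand). It was measured at 663, 656 and 645 normalized reads in GFP dishes 1 to 3 and at 1749, 1884 and 1956 in NUR77 dishes 1 to 3. The groups were far apart and the GFP values lay within a narrow range. The mean rose from 655 ± 8.88 to 1863 ± 105 (SD, n = 3 per line), with a log2 fold change of 1.51 (SE 0.06, 95% interval 1.39 to 1.62, limma adjusted p = 2.9e-13).

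Oscar (ENSMUSG00000054594, chromosome 7, 3609813 to 3616157 on the minus strand) encodes a co-receptor that signals through the adaptor FcRγ. It had 1, 2 and 1 reads in the GFP libraries and 0, 1 and 0 reads in the NUR77 libraries. The ratio of reads per depth, GFP over NUR77, was 3.35 with an exact 95% interval of 0.331 to 165, so that no difference was detectable at this depth. Calcr (ENSMUSG00000023964, chromosome 6, 3685680 to 3764714 on the minus strand), the calcitonin receptor of mature osteoclasts, had 0 reads in all 6 libraries. A count of 0 allows up to 0.658 normalized reads for GFP and 0.787 for NUR77, taking 3 reads over each group's depth as the limit. These bounds hold for counting error alone, because PCR copies of 1 molecule were not marked.

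Nfatc1, the transcription factor at the centre of osteoclast formation, showed overlapping levels in both lines. The gene (ENSMUSG00000033016) lies on chromosome 18, 80606205 to 80713071 on the minus strand. GFP dishes 1 to 3 gave 735, 874 and 792 normalized reads, and NUR77 dishes 1 to 3 gave 765, 812 and 812. All NUR77 values lay inside the GFP range. The mean was 800 ± 70.1 for GFP and 796 ± 27 for NUR77 (SD, n = 3 per line), with a log2 fold change of -0.0042 (SE 0.06, limma adjusted p = 0.96). The 95% interval of the ratio NUR77 over GFP ran from 0.907 to 1.1.

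Of the pair of fusion genes, Dcstamp rose and Ocstamp was barely detected. Both encode multi-pass membrane proteins needed for precursors to fuse into multinucleated cells. Dcstamp (ENSMUSG00000022303, chromosome 15, 39745930 to 39760938 on the plus strand) was at 144, 151 and 161 normalized reads in GFP dishes 1 to 3 and at 249, 222 and 259 in NUR77 dishes 1 to 3. The lowest NUR77 library stood above the highest GFP library. The mean rose from 152 ± 8.34 to 243 ± 19.2 (SD, n = 3 per line), a log2 fold change of 0.67 (SE 0.09, 95% interval 0.48 to 0.86, limma adjusted p = 4.8e-06).

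Ocstamp (ENSMUSG00000027670, chromosome 2, 165393760 to 165400405 on the minus strand) had 3, 2 and 6 reads in the GFP libraries and 1, 3 and 2 reads in the NUR77 libraries. The ranges overlapped. The ratio of reads per depth, GFP over NUR77, was 1.53 with an exact 95% interval of 0.52 to 5.05, which leaves a difference in either direction undetectable at this depth.

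The 4 resorption genes moved in opposite directions. Car2 and Mmp9 had large rises, and Ctsk and Acp5 fell to a few normalized reads.

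Car2 (ENSMUSG00000027562, chromosome 3, 14886273 to 14900770 on the plus strand) encodes carbonic anhydrase II, which supplies protons for acid secretion. It was at 334, 366 and 410 normalized reads in GFP dishes 1 to 3 and at 4508, 4285 and 4184 in NUR77 dishes 1 to 3. The lines were separated by about an order of magnitude in every library. The mean rose 11.7-fold, from 370 ± 38.2 to 4326 ± 166 (SD, n = 3 per line), with a log2 fold change of 3.55 (SE 0.07, 95% interval 3.41 to 3.69, limma adjusted p = 1.1e-16).

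Mmp9 (ENSMUSG00000017737, chromosome 2, 164940780 to 164955850 on the plus strand) encodes a secreted gelatinase. GFP dishes 1 to 3 gave 3.48, 5.02 and 2.61 normalized reads, which are 5, 8 and 4 reads. NUR77 dishes 1 to 3 gave 323, 245 and 224 normalized reads. It was near the detection limit in the GFP line and well measured in the NUR77 line, with replicate 1 the highest. The mean rose 71.2-fold, from 3.71 ± 1.22 to 264 ± 52.2 (SD, n = 3 per line). On the log2(value + 1) scale, which understates changes of low genes, the fold change was 5.83 (SE 0.21, 95% interval 5.38 to 6.28, limma adjusted p = 2.7e-13), a ratio of 56.9. By absolute log2 fold change, Mmp9 ranked 39 among all tested genes.

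Ctsk (ENSMUSG00000028111, chromosome 3, 95499256 to 95509362 on the plus strand) encodes cathepsin K, the main collagen-degrading protease of osteoclasts. It was at 55.7, 59 and 71.2 normalized reads in GFP dishes 1 to 3 and at 6.25, 2.09 and 4.77 in NUR77 dishes 1 to 3. Only 7, 3 and 6 reads stood behind the NUR77 values, against 80, 94 and 109 in the GFP libraries. The mean fell from 62 ± 8.17 to 4.37 ± 2.11 (SD, n = 3 per line), a log2 fold change of -3.63 (SE 0.29, 95% interval -4.25 to -3.01, limma adjusted p = 1e-08).

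Acp5 (ENSMUSG00000001348, chromosome 9, 22126727 to 22135711 on the minus strand) encodes TRAP, the tartrate-resistant acid phosphatase used to stain osteoclasts. It was at 21.6, 27.6 and 26.1 normalized reads in GFP dishes 1 to 3 and at 8.93, 6.97 and 10.3 in NUR77 dishes 1 to 3. Every NUR77 library was below every GFP library, on 10, 10 and 13 reads against 31, 44 and 40. The mean fell from 25.1 ± 3.14 to 8.75 ± 1.7 (SD, n = 3 per line), a log2 fold change of -1.43 (SE 0.25, 95% interval -1.96 to -0.90, limma adjusted p = 9.2e-05). An annotated gene on the opposite strand, 6530413G14Rik, overlaps Acp5, and an antisense gene overlaps Nfatc1. Neither has a row in the table, and no source used here gives the strand setting of the read counting.

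Sequence before the start is printed here for both genes that fell. MITF and PU.1 are known regulators of osteoclast enzymes. Whether the Mitf level, given below, had a part in these falls was not tested. RefSeq promoter windows of GRCm38.p6 (250 bases before to 50 after a start) were matched for 5 of the 10 genes, Tnfrsf11a, Oscar, Calcr, Acp5 and Ctsk, in 8 windows. The stretch before the Ctsk start is chr3:95498960-95499209 on the plus strand. The stretch for Acp5 is chr9:22130609-22130848 on the minus strand, from 250 to 11 bases before the start of the RefSeq window that lies farthest into the gene, leaving out 10 bases that GENCODE places in an exon. Both are written in the direction of the gene, and capitals mark a match to a motif searched.
Ctsk: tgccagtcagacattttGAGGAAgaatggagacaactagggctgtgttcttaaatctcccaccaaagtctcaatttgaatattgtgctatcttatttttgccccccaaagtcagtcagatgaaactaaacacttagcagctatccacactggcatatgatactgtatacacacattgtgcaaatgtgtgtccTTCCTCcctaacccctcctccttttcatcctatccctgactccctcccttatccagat
Acp5: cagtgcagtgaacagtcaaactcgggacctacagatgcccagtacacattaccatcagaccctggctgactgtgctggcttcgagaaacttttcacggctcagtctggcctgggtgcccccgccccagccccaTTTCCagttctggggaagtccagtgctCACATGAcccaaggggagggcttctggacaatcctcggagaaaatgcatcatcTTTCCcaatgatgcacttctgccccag

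In the Ctsk stretch the capitals are the PU.1 core GAGGAA, 233 bases before the start on the gene's strand and 58 bases before it on the opposite strand. In the Acp5 stretch they are the MITF motif TCATGTG, 90 bases before the start on the opposite strand, and the NFAT core GGAAA, 117 and 37 bases before it on the opposite strand. The other 2 Acp5 windows held GGAAA but not TCATGTG, and GAGGAA was also found in the Oscar window. GGAAA matched 6 of the 8 windows, those of Acp5, Calcr, Ctsk and Oscar among them. In the Ctsk window it began at base 1 after the start, outside the printed stretch. Both strands were searched, and GAGGAA and GGAAA can overlap where an A follows. Of all 32851 RefSeq windows of 300 bases, 28.3% held GAGGAA, 3.77% held TCATGTG and 61.3% held GGAAA. The NR4A motif AAAGGTCA was in 1.51% of all windows and the AP-1 motif TGANTCA in 7.81%, and neither matched any of the 8 windows of these genes. These are letter matches in short windows, with no binding measured.

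**Figure D2:**
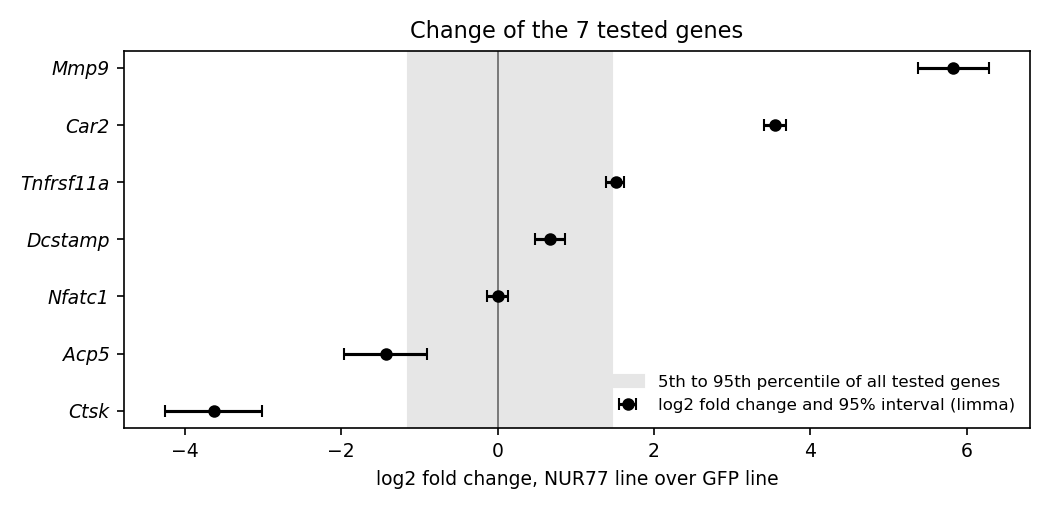
Log2 fold changes, NUR77 line over GFP line, of the 7 tested osteoclast genes with their 95% limma intervals. The grey band spans the 5th to the 95th percentile of all tested genes (-1.14 to 1.46). Mmp9, Car2, Tnfrsf11a, Acp5 and Ctsk lie past the band, and Nfatc1 lies at 0.

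The sizes of change are set here beside those of all tested genes. The median absolute log2 fold change was 1.51 over the 7 tested genes and 0.31 over all tested genes. Changes of 2-fold or more that passed the test were found in 5 of the 7, with 3 higher and 2 lower, beside 13.9% of all tested genes. Of these 5, Mmp9, Ctsk and Acp5 reached the filter mean of 10 only through the line in which they were higher, so their place among the 7 depends on the difference itself. The lines did not overlap for 6 of the 7, beside 70.6% of all tested genes. The median signed log2 fold change was 0.67 over the 7 and 0.06 over all. These are descriptions of the 7 genes that passed the filter on low values, and the 3 genes too low to test are missing from them.

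Compared per kilobase of annotated exon, the order of the genes changed between the lines. In the GFP line Car2 led at 153 normalized reads per kilobase, followed by Tnfrsf11a at 109 and Nfatc1 at 107. The ranges of Tnfrsf11a (108 to 111) and Nfatc1 (98.4 to 117) overlapped, so their order is not resolved. Dcstamp at 57, Ctsk at 41 and Acp5 at 12.4 per kilobase came next, each apart from its neighbours. At the bottom, Ocstamp at 0.662 (0.343 to 1.07) overlapped both Mmp9 at 1.05 (0.739 to 1.42) and Oscar at 0.47 (0.354 to 0.68), and Calcr was at 0. The ranges of Mmp9 and Oscar did not overlap.

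In the NUR77 line Car2 led at 1786 per kilobase, followed by Tnfrsf11a at 311 and Nfatc1 at 107. Mmp9 moved up to 74.6 per kilobase (63.4 to 91.3), overlapping Dcstamp at 91.2 (83.2 to 97.1). Acp5 at 4.31 (3.43 to 5.09) and Ctsk at 2.89 (1.38 to 4.13) now overlapped near the bottom. Ctsk thus stood above Mmp9 in the GFP line and below it in the NUR77 line. Lengths are the union of annotated exons, which may exceed the transcript used by these cells.

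**Figure D3:**
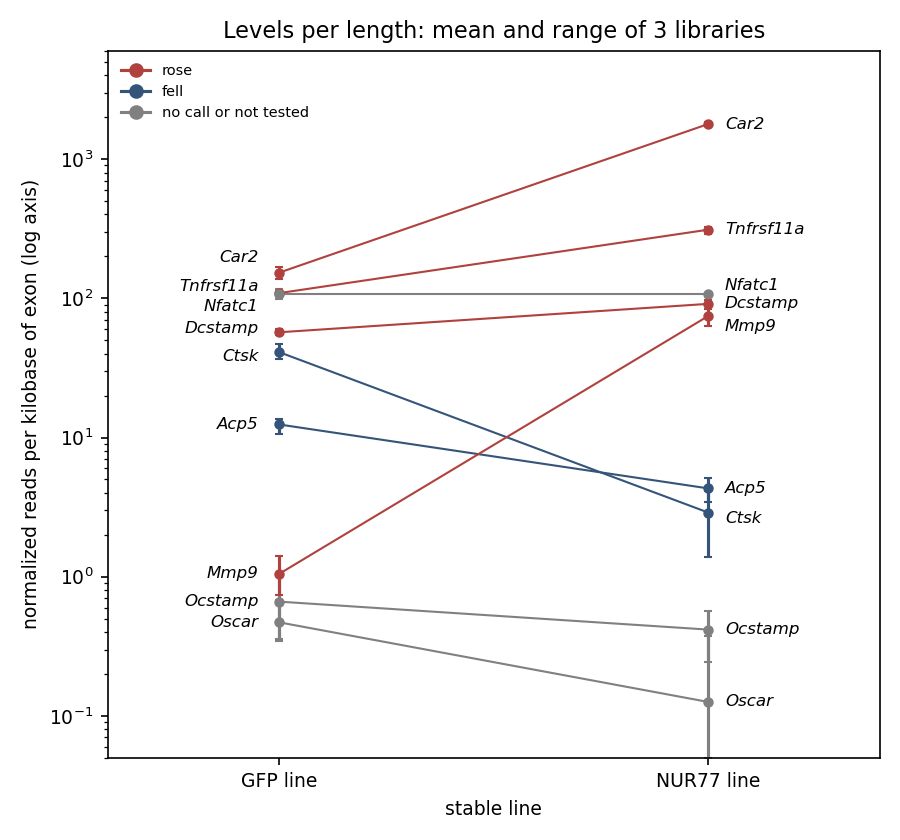
Normalized reads per kilobase of exon (log axis) in the GFP and NUR77 lines, as mean and range of 3 libraries, for the 9 genes with any read. Mmp9 crosses Acp5 and Ctsk on its way from 1.05 to 74.6, and Nfatc1 runs level at 107. The range of Oscar in the NUR77 line reaches 0 and leaves the axis.

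The spread between dishes of 1 line differed from gene to gene. Among genes with over 200 reads in every library of the line, the coefficient of variation ran from 1.36% for Tnfrsf11a to 10.3% for Car2 in the GFP line, with Nfatc1 at 8.76%. In the NUR77 line it ran from 3.39% for Nfatc1 to 19.8% for Mmp9, with Car2 at 3.84%. Over all tested genes the median coefficient was 5.22% for GFP and 6.24% for NUR77. The coefficient was 48.3% for Ctsk in the NUR77 line and 32.9% for Mmp9 in the GFP line, in each case on fewer than 10 reads per library.

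The median change of the genes beside each osteoclast gene was close to 0 for all but Ctsk, around which the median was lower. For each gene, the 25 nearest tested genes on its chromosome were taken. Their median log2 fold change was 0.10 around Mmp9, 0.04 around Car2, -0.12 around Tnfrsf11a, -0.05 around Dcstamp and 0.18 around Acp5. Around Ctsk, within 0.753 Mb, it was -0.33, with 16 of the 25 neighbours called lower and 7 called higher. Over all tested genes, 28.3% were called lower and 38.4% higher. The lowest neighbour of Ctsk stood at -2.21, against -3.63 for Ctsk itself.

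**Figure D4:**
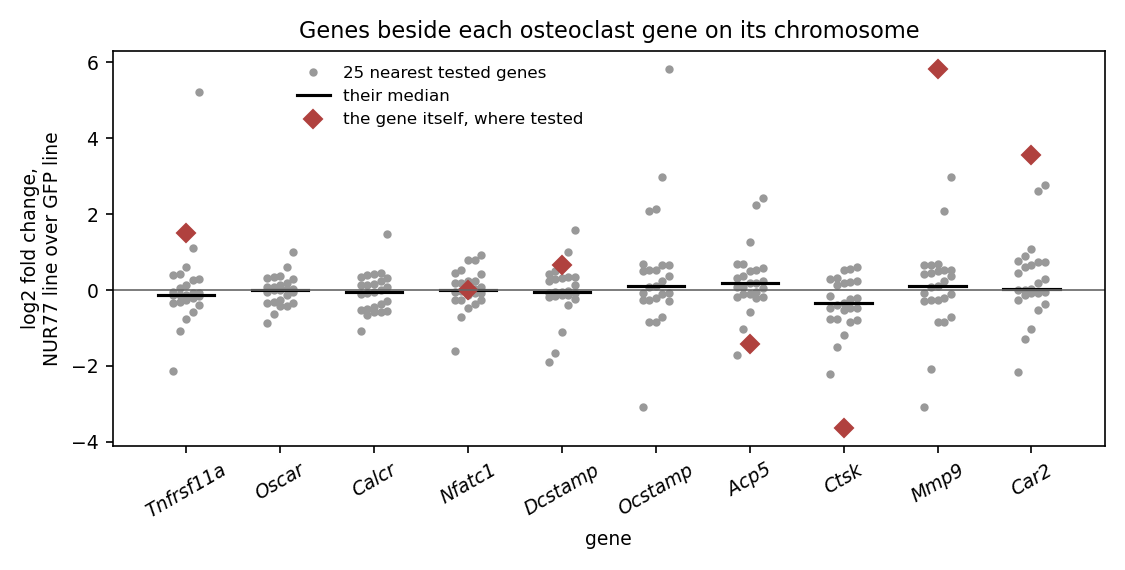
Log2 fold change, NUR77 line over GFP line, of the 25 tested genes nearest to each osteoclast gene (grey points, with a bar at their median) and of the gene itself where tested (red diamond). Mmp9 at 5.83, Car2 at 3.55 and Ctsk at -3.63 lie outside their neighbours' range. The highest neighbour of Ocstamp is Mmp9.

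The genes with the pattern most like that of Mmp9 and Ctsk, which had the largest rise and fall, were found by Euclidean distance between gene-centred log2 values over the 6 libraries. Nearest to Mmp9 were Ccl7, Slc30a2, Cxcl2, Irf7 and Cnn2, at distances of 0.68 to 0.87. Cxcl2, a chemokine, had a mean of 45.9 ± 4.37 normalized reads in GFP cells and 1816 ± 207 in NUR77 cells. Irf7, an interferon regulatory factor, was at 32.3 ± 4.78 and 1746 ± 284. Nearest to Ctsk were Tmem246, Ptafr, Gm16587, 4930550L24Rik and Tm4sf19, at distances of 0.34 to 0.74. Ptafr, the receptor for platelet-activating factor, had a mean of 796 ± 34.7 in GFP cells and 58.8 ± 13.5 in NUR77 cells. The SD is over 3 libraries in each line, and these are descriptions with no test.

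The rest of the pathway was described with 5 lists of 85 genes, of which 84 were in the table and 68 were tested. In the NUR77 line 35 of them rose and 21 fell, so that 82.4% were called, beside 66.7% of all tested genes. Among those called, Prdm1, Id1 and Atp6v0d2 reached the filter mean of 10 only through the line in which they were higher. Their place among the tested genes thus depends on the difference itself. In the paragraphs on these lists, values are mean normalized reads ± SD over 3 libraries, GFP line first, and adjusted p-values are from limma over all tested genes.

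Among ligands, receptors and proximal signalling genes, 9 of 14 tested fell and 3 rose, and the median log2 fold change was -0.68, beside 0.06 over all tested genes. Trem2, a co-receptor of the adaptor DAP12, went from 3517 ± 84.3 to 432 ± 46.9 (adjusted p = 8.5e-16, log2 fold change -3.03). Csf1, which encodes M-CSF, went from 141 ± 1.76 to 18.9 ± 3.66 (adjusted p = 6.4e-11, log2 fold change -2.85). Its receptor Csf1r fell from 4815 ± 96.1 to 2820 ± 177 (adjusted p = 9.5e-10, log2 fold change -0.77). The adaptors of both co-receptor routes, Tyrobp (log2 fold change -1.35) and Fcer1g (-1.10), and Traf6 (-0.59), which links RANK to NF-κB, fell too. Thus RANK itself was higher, while TRAF6, DAP12 and FcRγ transcripts were lower. Lgr4, an alternative receptor for RANKL, rose from 12.3 ± 4.7 to 53.7 ± 4.84 (adjusted p = 6.2e-07, log2 fold change 2.1). Lyn, a Src-family kinase, rose from 1661 ± 57.7 to 3561 ± 208 (adjusted p = 1.4e-11, log2 fold change 1.10). Syk, the remaining gene of the list that rose, went from 1491 ± 32.8 to 1745 ± 108 (adjusted p = 0.0018, log2 fold change 0.22). Plcg2 (adjusted p = 0.48, log2 fold change 0.04) and Btk (-0.12, adjusted p = 0.073) did not pass. Tnfsf11, which encodes RANKL, and Tnfrsf11b, its decoy receptor, had 0 reads in all 6 libraries, and Il34 and Sirpb1a were too low to test.

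Among transcription factors and co-activators, 12 of 17 tested rose and 2 fell, with a median log2 fold change of 0.26. Prdm1, which encodes the repressor Blimp1, had 1 read over the GFP libraries and 484 over the NUR77 libraries. Its ratio of reads per depth was 579, with an exact 95% interval of 103 to 22903 (limma adjusted p = 2.3e-12). Nfkb2, a subunit of the alternative NF-κB route, rose from 560 ± 40 to 1497 ± 102 (adjusted p = 5.7e-12, log2 fold change 1.42). Mitf, a factor that works with PU.1 on osteoclast genes, fell from 765 ± 23 to 393 ± 13.6 (adjusted p = 3.2e-10, log2 fold change -0.96). Tfec, a relative of Mitf below the filter, had 41 GFP and 0 NUR77 reads, at least 11.5-fold lower against a limit of 3 reads over the group. Tfe3, another relative, went from 973 ± 35 to 884 ± 52.1 (adjusted p = 0.044, log2 fold change -0.14). The Tfe3 ranges overlapped, and it no longer passed when GFP replicate 2 was left out (adjusted p = 0.13), GFP replicate 3 (0.13), NUR77 replicate 1 (0.15) or NUR77 replicate 2 (0.088). Spi1, which encodes PU.1, was not called (adjusted p = 0.21, log2 fold change 0.09), nor was Rela (0.11, adjusted p = 0.11). Camk4 and Pparg were too low to test.

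Among inhibitors of differentiation, 12 of 14 tested rose, and the median log2 fold change was 0.94. Id1, which blocks helix-loop-helix factors, rose from 6.34 ± 0.687 to 55.4 ± 0.746 (adjusted p = 2.6e-09, log2 fold change 2.95). Nfkbia, which encodes the NF-κB inhibitor IκBα, rose from 392 ± 58.1 to 2613 ± 128 (adjusted p = 1.7e-11, log2 fold change 2.74). Cblb, a ubiquitin ligase, rose from 218 ± 9.22 to 528 ± 10.7 (adjusted p = 4.3e-11, log2 fold change 1.27). Irf8, a factor that restrains Nfatc1, rose from 855 ± 24.5 to 1303 ± 71.8 (adjusted p = 5.8e-08, log2 fold change 0.61). Rcan1, an inhibitor of calcineurin, did not pass (adjusted p = 0.29, log2 fold change -0.12). Several of these genes, Nfkbia among them, are also known targets of NF-κB.

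Among fusion genes other than Dcstamp and Ocstamp, 4 of 10 tested rose and 3 fell, with a median log2 fold change of -0.07. Atp6v0d2, a proton pump subunit needed for fusion, was at 1036, 857 and 982 normalized reads in GFP dishes 1 to 3 and at 1.79, 0.697 and 0.796 in NUR77 dishes 1 to 3. Only 4 reads remained over the NUR77 libraries, against 4354 in the GFP line (log2 fold change -8.87, SE 0.19, adjusted p = 4.5e-16). Cd47, the ligand of the fusion receptor SIRPα, rose from 1065 ± 65.5 to 3568 ± 327 (adjusted p = 4.7e-13, log2 fold change 1.74). Sirpa itself fell from 8994 ± 262 to 4686 ± 488 (adjusted p = 1.3e-09, log2 fold change -0.95). Itgav, the αv integrin, rose from 1059 ± 73.8 to 2998 ± 143 (adjusted p = 6.9e-13, log2 fold change 1.5). Itgb3, its osteoclast partner, was below the filter at 14.5 ± 6.09 and 2.15 ± 0.674, and Adam12 was too low to test. Cd44 (adjusted p = 0.25, log2 fold change -0.06), Adam8 (-0.08, adjusted p = 0.20) and P2rx7 (-0.18, adjusted p = 0.064) did not pass. Under TMM and under median-of-ratios scaling these 3 were called lower, giving 4 higher and 6 lower.

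Among genes of acid secretion, the sealing zone and matrix breakdown, 6 of 13 tested fell and 4 rose, and the median log2 fold change was -0.11. Atp6v1c1, a proton pump subunit, fell from 4623 ± 89.4 to 1457 ± 25 (adjusted p = 1.1e-14, log2 fold change -1.66). Tcirg1, the membrane subunit of the osteoclast proton pump, fell from 4685 ± 189 to 1500 ± 43 (adjusted p = 2.7e-14, log2 fold change -1.64). Clcn7, the chloride transporter that works beside the pump, fell from 1214 ± 7.62 to 690 ± 32.9 (adjusted p = 8.7e-10, log2 fold change -0.82), and its partner Ostm1 fell as well (-0.65). Car2, which makes the protons, was thus higher while these pump and chloride genes were lower. Rab27a, a regulator of vesicle transport, rose from 150 ± 22.8 to 224 ± 4.5 (adjusted p = 1.1e-04, log2 fold change 0.59). Slc37a2, a phosphate-linked sugar transporter, rose from 880 ± 86.4 to 1087 ± 17.1 (adjusted p = 5.1e-04, log2 fold change 0.31). Src, needed for the ruffled border, did not pass (adjusted p = 0.84, log2 fold change -0.04), nor did Vav3 (0.07, adjusted p = 0.36). Cttn, Mmp14, Siglec15, Slc9b2, Rufy4, Sphk1 and Anxa8 were too low to test.

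**Figure D5:**
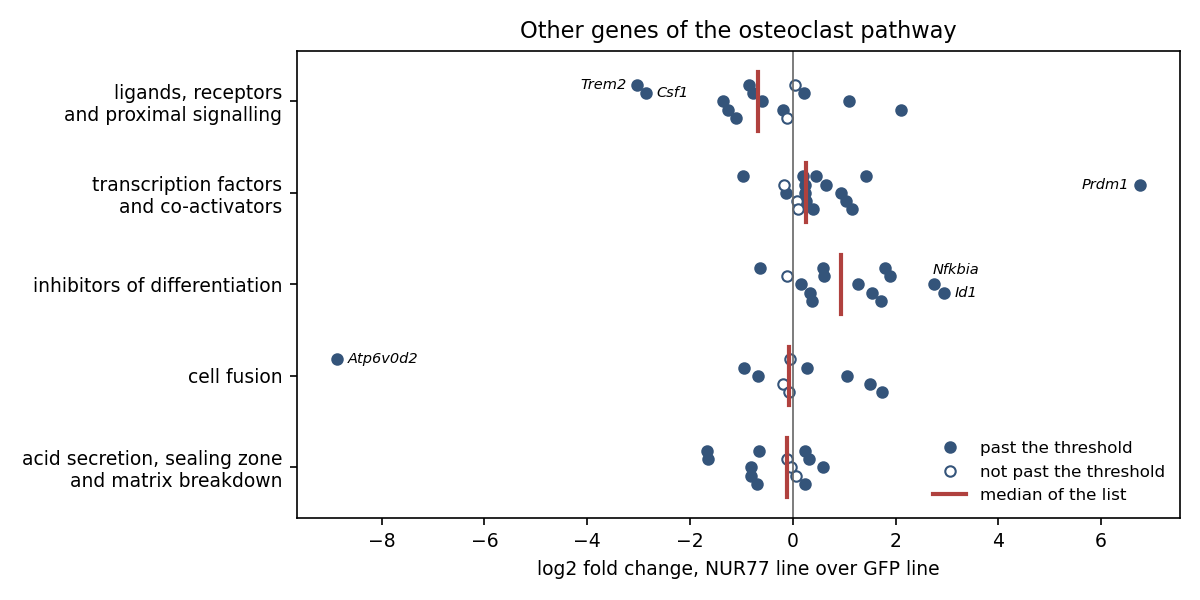
Log2 fold change, NUR77 line over GFP line, of the 68 tested pathway genes by list, filled where past the threshold and open where not, with a red bar at each list's median. The medians are -0.68, 0.26, 0.94, -0.07 and -0.11 from top to bottom, and Atp6v0d2 stands far to the left at -8.87.

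Macrophage markers went in both directions, and most markers of other cell types were too low to test. Of 8 macrophage markers, 4 fell (Mpeg1 by 4.03, Cd68 by 1.45, Csf1r by 0.77 and Adgre1 by 0.59 on the log2 scale), while Itgam (log2 fold change 1.18) and Fcgr1 (0.23) rose and Ptprc and Spi1 were not called. The list had summed levels of 46225 to 46989 normalized reads for GFP and 25392 to 25669 for NUR77, with the mean of Mpeg1 going from 16580 to 1019 and that of Cd68 from 14010 to 5136. Of 10 osteoblast and stromal markers, Runx2 and Alpl rose and the other 8 were too low to test, with sums of 193 to 233 and 666 to 759, and Ibsp and Dmp1 at 0. Of 7 dendritic cell markers, Ccr7 and Zbtb46 rose and 5 were too low to test, with Flt3 at 0. Their sums were 25.7 to 37.6 and 182 to 322, most of the latter from Ccr7, which had 0 GFP reads and a NUR77 mean of 223 ± 80.7. Among the 5 below the filter, Cd209a had 18 GFP and 0 NUR77 reads, Siglech 16 and 0, and Xcr1 35 and 6. Of 7 neutrophil markers, S100a8 rose and 6 were too low to test, with sums of 4.18 to 7.53 and 13.5 to 42.9, and Ly6g and Camp at 0. Of 7 erythroid markers, Epor rose and 6 were too low to test, with sums of 2.79 to 3.77 and 9.82 to 26.3, and Hbb-bt and Alas2 at 0. Of 5 lymphocyte markers, 0 were tested and 4 were at 0. Alpl, Ccr7, S100a8 and Epor reached the filter mean of 10 only through the NUR77 line, in which they were higher. Their place among the tested markers thus depends on the difference itself. In bulk RNA, fewer cells of a type and less RNA per cell cannot be told apart, and the part of these markers in the osteoclast gene results was not tested.

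One library stood apart in a list foreign to macrophages. Of 15 skeletal muscle genes, 5 were tested, of which 2 fell and 3 were not called. Of the 15, 10 were highest in NUR77 replicate 1. Those 10 genes, picked out for that reason, summed to 242 normalized reads there, 56.4 and 51.7 in NUR77 replicates 2 and 3, and 47.7 to 55 in the GFP libraries. The remaining 5, mostly Tnni2 and Ryr1, which both fell, summed to 441 to 491 in the GFP libraries and 114 to 165 in the NUR77 libraries. Without NUR77 replicate 1, 4 osteoclast genes rose and 2 fell, as with all libraries, and the log2 fold change was 5.67 for Mmp9 and -3.89 for Ctsk.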

How the data were processed

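The authors deposited log2 values for 23154 mouse gene identifiers, 1 column per library. The genome build was mm10 and the tools named were TopHat2 2.1, HTSeq and DESeq2, per the submitters' processing notes. No source used here gives their roles, the annotation release or the strand setting. Per the labels' protocols, stranded poly(A) libraries were made. From the values, each was log2(normalized reads + 1) with a total of 10000000 per library, and whole reads were recovered for 100% of values within 0.1 read. Equal totals mean that abundant genes that differ shift all others slightly.

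Libraries were grouped by transgene. Genes with a mean of 10 or more were tested with limma 3.58.1 in R 4.3.3 (trend, robust), without covariates, with Benjamini-Hochberg adjustment over all 11201 tested genes and a threshold of 0.05. The fit was tested on simulated data. Names and positions are from GENCODE vM21 (GRCm38, the same assembly as mm10), which named 22888 identifiers.

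The genes and lists were chosen with earlier results of these data known. Named are all 10 osteoclast genes, per list the 2 largest rises and falls and up to 2 tested genes with the smallest change and no call, a fixed set of regulators, and the 5 nearest genes by pattern. Tyrobp, Fcer1g, Traf6, Syk, Ostm1 and P2rx7 were added after their values were seen. Some genes of the lists are not reported here by name. Alternatives were pseudocounts of 0.5 and 5, no filter or a mean of 50, TMM and median-of-ratios scaling, limma without trend, limma-voom on whole reads, a replicate block, and each library left out.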

Additional observations from a re-analysis of the deposited data

How the results depend on the processing

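Over 15 alternatives, none of 103 refitted fold changes of the 7 tested osteoclast genes changed its call. With a filter at a mean of 50 the number that fell was 0 in place of 2, because Acp5 and Ctsk then leave the test. The log2 fold change of Mmp9 was 4.94 and that of Ctsk -2.86 with a pseudocount of 5, each the smallest size over the alternatives. Nfatc1 lay between -0.07 and 0.06 and was called in none (adjusted p 0.38 to 0.97).

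Of 1018 refitted pathway gene values, 26 changed their call, over 10 genes, and 0 reversed. Leaving out 1 library in turn gave 34 to 35 pathway genes higher and 20 to 22 lower. The balance moved more with scaling: TMM gave 33 pathway genes higher and 27 lower, and median-of-ratios 34 and 27, against 35 and 21 as deposited. TMM scaling gave 3687 genes higher and 3715 lower over all tested genes, against 4305 and 3170 as deposited. With the replicate number as a block, 4 osteoclast genes rose and 2 fell, and 35 pathway genes rose and 22 fell. The numbers were not taken as pairs in the main fit. Deviations of same-numbered libraries correlated at 0.002, 0.114 and 0.045. GFP replicate 1 correlated best with NUR77 replicate 3 (0.073), while GFP replicates 2 and 3 correlated best with the NUR77 library of the same number. These low values do not settle whether the dishes were paired. Depth limits Ocstamp, Oscar and Calcr, the NUR77 values of Ctsk and the GFP values of Mmp9.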
